A study of Mus musculus with 6 samples.

Results

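The transcripts described here are those of the retinoid X receptors Rxra and Rxrb and of 8 receptors that pair with them, 10 genes chosen by symbol out of 45193 in the count table, and all 10 passed the filter on low counts. They were measured by RNA sequencing in macrophages that had been differentiated from mouse bone marrow over 6 days with L929-conditioned medium, which supplies CSF-1. RXR knockout cells (3 libraries) carried the genotype RXRafl/flLysMCre RXRb-/-, in which loxP-flanked Rxra is deleted by Cre made from the lysozyme M locus, active in myeloid cells, and Rxrb is inactivated in every cell. WT cells (3 libraries) carried neither change, and no Cre is named for them. Both genotypes are labelled C57BL/6J, and both were moved to serum-free medium and given the solvent DMSO for 3 hours, with no receptor ligand added. The labels call the replicates biological without naming animals, so each p-value reflects only how these libraries vary, and that variation may be technical.

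Retinoid X receptors (RXRs) are nuclear receptors, transcription factors that bind small lipophilic ligands. An RXR joins a partner receptor, and the pair binds DNA at repeats of a short hexamer core. Partners include the oxysterol receptors LXR alpha (Nr1h3) and LXR beta (Nr1h2), the fatty acid receptors PPAR gamma (Pparg) and PPAR delta (Ppard), the retinoic acid receptors alpha (Rara) and gamma (Rarg), the vitamin D receptor (Vdr) and thyroid hormone receptor alpha (Thra). In macrophages, LXR and PPAR pairs are known for control of cholesterol export and fatty acid handling.

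Among the 8 partner genes, Nr1h3 was lower in knockout macrophages, Rarg was higher, and the other 6 did not pass the test. Of all 10 genes, 1 was higher and 2 were lower at an adjusted p under 0.05 (edgeR quasi-likelihood test, Benjamini-Hochberg), against 19.4% of the 12011 tested genes called in either direction (9.77% higher and 9.61% lower). The number of genes past the threshold behind that share was 2327, and it was 1286 without WT replicate 1 and 1383 without knockout replicate 1, while the count among the 10 receptor genes was 3 in both fits. The 3 values of one genotype lay apart from those of the other in 4 of the 10 genes, those 3 and Rara, against 36.9% of tested genes. The median log2 fold change was 0.04 over the 10 genes and -0.01 over all tested genes. Total counts ranged from 17250051 to 25091019 in knockout libraries and from 7880320 to 14957253 in WT libraries, so depth and genotype cannot be told apart. Knockout replicates 1 and 3 had reads in 21066 and 21609 genes, more than the 18642 of the deeper knockout replicate 2, and WT libraries had reads in 16820 to 18174.

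**Figure D1:**
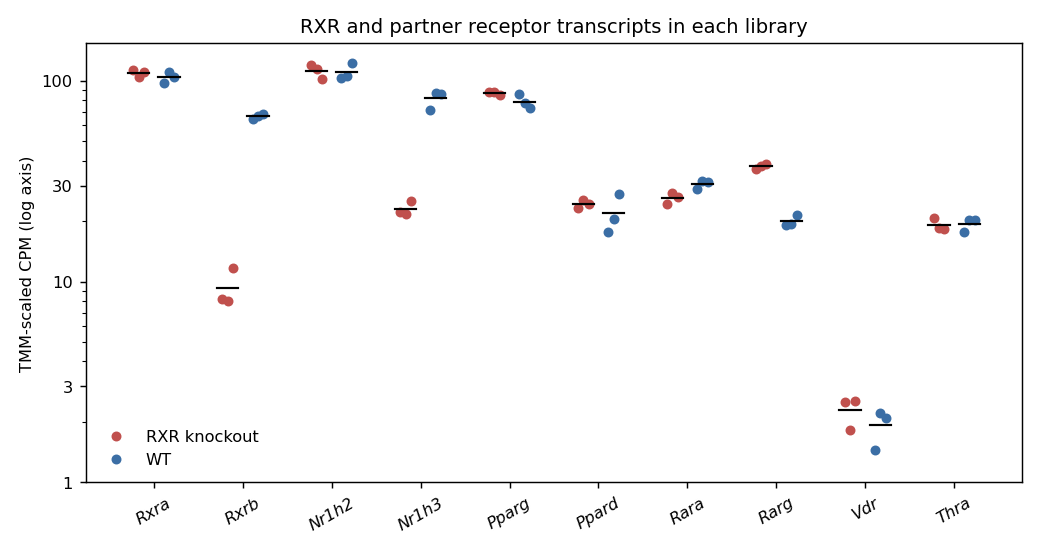
Points are single libraries (3 per genotype, knockout left of WT), bars are means, and the vertical log axis is TMM-scaled CPM (reads scaled to a common library total). Rxrb and Nr1h3 lie lower and Rarg lies higher in all 3 knockout libraries than in any WT library.

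Rxrb came first, since its reads check the genotype labels. Rxrb (ENSMUSG00000039656, chromosome 17, 34031812 to 34038399, plus strand, GRCm38) had 8.14, 7.98 and 11.7 CPM in knockout replicates 1, 2 and 3, against 64.7, 66.9 and 68.4 CPM in WT replicates 1, 2 and 3. CPM are counts scaled to a common library total with TMM factors, which adjust for library make-up. Every knockout library was far below every WT library, and knockout replicate 3 was the highest of its group. The log2 fold change was -2.85 (SE 0.14, 95% interval -3.15 to -2.55, edgeR adjusted p = 4.54e-08), so 13.8% of the WT level remained, from 556 reads over the 3 knockout libraries and 2185 over the 3 WT libraries. Reads on the gene therefore still occurred in every knockout library, at 140, 201 and 215. Of 13 tested genes within 100 kb of Rxrb, 3 passed the test, against 19.4% of all tested genes. Nearest were the zinc transporter gene Slc39a7, 0.13 kb away (4.87 ± 0.967 CPM in knockout and 6.00 ± 0.972 CPM in WT, SD, n = 3 each), and the collagen gene Col11a2, 1.04 kb away (1.45 ± 0.577 CPM in knockout and 3.31 ± 0.620 CPM in WT). Col11a2 fell (log2 fold change -1.18, edgeR adjusted p = 0.0198) but its edgeR adjusted p was 0.0865 without WT replicate 1, 0.0799 without WT replicate 3 and 0.0713 without knockout replicate 1. The Polycomb gene Ring1 and the MHC class I gene H2-K1, the next by distance, had log2 fold changes of -0.11 and 0.11 and did not pass.

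Rxra (ENSMUSG00000015846, chromosome 2, 27676440 to 27762957, plus strand) had 113, 104 and 111 CPM in knockout replicates 1, 2 and 3, against 97.0, 110 and 105 CPM in WT replicates 1, 2 and 3. The groups overlapped. The log2 fold change was 0.07 (SE 0.08, 95% interval -0.11 to 0.25, edgeR adjusted p = 0.588), and it changed sign once length and GC offsets were used (-0.12, edgeR adjusted p = 0.30). A count over the whole gene does not check the loss of the part between loxP sites, so these values do not test the Rxra label. The third family member, Rxrg, had 1, 0 and 4 reads in knockout replicates 1, 2 and 3, against 0 reads in each WT library, and was not tested. Its reads were in the 2 knockout libraries with reads in the most genes. Lyz2, the lysozyme gene at whose locus Cre was placed, averaged 28.4 ± 6.12 CPM in knockout and 15260 ± 594 CPM in WT macrophages (SD, n = 3 each), so Lyz2 loss, Cre and RXR loss cannot be told apart.

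Transcripts of LXR alpha fell and those of LXR beta did not pass the test. Nr1h3 (ENSMUSG00000002108, chromosome 2, 91184061 to 91202834, minus strand), the gene of the LXR form known for high levels in macrophages and liver, had 22.3, 21.6 and 25.3 CPM in knockout replicates 1, 2 and 3, against 71.8, 87.4 and 86.1 CPM in WT replicates 1, 2 and 3. Even the lowest WT library was well above the highest knockout library. The log2 fold change was -1.83 (SE 0.11, 95% interval -2.06 to -1.60, edgeR adjusted p = 2.72e-07), a fall to 28.2% of the WT level. Nr1h3 lies 63.4 Mb from Rxra on the same chromosome. Nr1h2 (ENSMUSG00000060601, chromosome 7, 44549616 to 44553951, minus strand), the gene of the widely expressed LXR form, had 119, 114 and 102 CPM in knockout replicates 1, 2 and 3, against 104, 106 and 123 CPM in WT replicates 1, 2 and 3. The groups overlapped throughout, and the log2 fold change was 0.01 (SE 0.09, 95% interval -0.19 to 0.22, edgeR adjusted p = 0.942), a sign that turned when either WT replicate 1 or 2 or knockout replicate 1 or 2 was left out. In bulk RNA, fewer cells of a type and less RNA per cell cannot be told apart.

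The balance within the LXR pair moved with Nr1h3. Set per kb of exon, so that genes of different length can be compared, Nr1h3 made up 20.0%, 20.1% and 24.8% of LXR transcripts in knockout replicates 1, 2 and 3, against 48.0%, 52.4% and 48.3% in WT replicates 1, 2 and 3. Every knockout share lay below every WT share. The difference was -28.0 percentage points, and the exact permutation test (two-sided) gave p = 0.1, its floor for 3 libraries per genotype. This share is taken within a library, so library scaling does not enter it. The summed LXR level was 42.5 ± 1.91 CPM per kb in knockout and 65.5 ± 5.77 CPM per kb in WT macrophages (SD, n = 3 each), a ratio of 0.649.

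**Figure D2:**
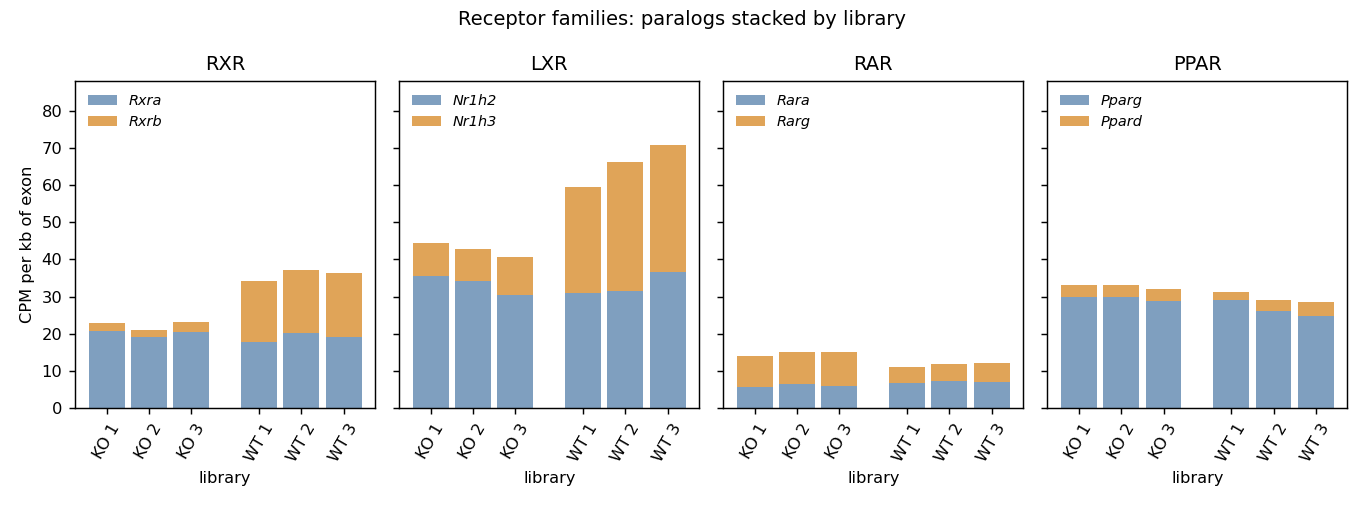
Stacked bars give CPM per kb of exon of the named paralogs in each library (KO is RXR knockout, on the left of WT). The Nr1h3 part of the LXR bars and the Rxrb part of the RXR bars are smaller in knockout libraries, while Rarg takes 58.0% to 60.4% of RAR transcripts there, against 38.3% to 41.2% in WT.

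Among the retinoic acid receptors, Rarg rose and Rara did not pass the test. Rarg (ENSMUSG00000001288, chromosome 15, 102234938 to 102257517, minus strand) had 36.4, 37.6 and 38.5 CPM in knockout replicates 1, 2 and 3, against 19.2, 19.3 and 21.4 CPM in WT replicates 1, 2 and 3. The replicates of each genotype lay close together and the genotypes did not overlap. The log2 fold change was 0.90 (SE 0.10, 95% interval 0.69 to 1.12, edgeR adjusted p = 5.05e-05), or 1.87 times the WT level. Rara (ENSMUSG00000037992, chromosome 11, 98927818 to 98974942, plus strand), the gene of the receptor form known from promyelocytic leukaemia fusions, had 24.3, 27.7 and 26.3 CPM in knockout replicates 1, 2 and 3, against 28.9, 31.8 and 31.2 CPM in WT replicates 1, 2 and 3. Its groups did not overlap, but the log2 fold change of -0.23 (SE 0.10, 95% interval -0.45 to -0.01) missed the threshold after adjustment over all tested genes (edgeR adjusted p = 0.138). It passed once length and GC offsets were used (-0.35, edgeR adjusted p = 0.0308). Rarb, the third form, had 4, 6 and 11 reads in knockout replicates 1, 2 and 3, against 2, 0 and 1 in WT replicates 1, 2 and 3, and was not tested.

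The make-up of retinoic acid receptor transcripts was set out in the same way. Rarg made up 60.4%, 58.0% and 59.5% of RAR transcripts per kb of exon in knockout replicates 1, 2 and 3, against 40.3%, 38.3% and 41.2% in WT replicates 1, 2 and 3 (difference 19.4 percentage points, two-sided exact permutation p = 0.1, the smallest possible). Rarg was the larger part in every knockout library and the smaller part in every WT library. The summed RAR level was 14.8 ± 0.603 CPM per kb in knockout and 11.7 ± 0.50 CPM per kb in WT macrophages (SD, n = 3 each).

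The PPAR genes did not pass the test. Pparg (ENSMUSG00000000440, chromosome 6, 115360951 to 115490399, plus strand), known for fat cell formation and for alveolar macrophage identity, had 88.3, 88.1 and 85.2 CPM in knockout replicates 1, 2 and 3, against 85.6, 77.5 and 73.3 CPM in WT replicates 1, 2 and 3. Only WT replicate 1 reached the knockout range. The log2 fold change was 0.15 (SE 0.09, 95% interval -0.04 to 0.33, edgeR adjusted p = 0.260), and Pparg passed once length and GC offsets were used (0.24, edgeR adjusted p = 0.0487). Ppard (ENSMUSG00000002250, chromosome 17, 28232700 to 28301474, plus strand), the gene of the broadly expressed fatty acid receptor, had 23.3, 25.6 and 24.4 CPM in knockout replicates 1, 2 and 3, against 17.6, 20.5 and 27.4 CPM in WT replicates 1, 2 and 3. The WT values spread on both sides of the knockout values, with a coefficient of variation of 4.71% in knockout and 23.1% in WT, where counting error alone would give 4.55% and 6.84%. The log2 fold change was 0.14 (SE 0.15, 95% interval -0.17 to 0.46, edgeR adjusted p = 0.537), and it was 0.36 without WT replicate 3 (edgeR adjusted p = 0.0638) and 0.01 without WT replicate 1 (edgeR adjusted p = 0.983). Ppard made up 9.38%, 10.2% and 10.1% of PPAR transcripts per kb of exon in knockout replicates 1, 2 and 3, against 7.49%, 9.39% and 12.8% in WT replicates 1, 2 and 3, overlapping shares that were not tested. Ppard lies 5.73 Mb from Rxrb, in a 10 Mb flank where 73 of 295 tested genes (24.7%) passed the test. The matching flanks of Rxra gave 44 of 218 (20.2%), and the share over all tested genes was 19.4%.

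Vdr and Thra also did not pass. Vdr (ENSMUSG00000022479, chromosome 15, 97854425 to 97910630, minus strand), the calcitriol receptor gene, had 2.50, 1.83 and 2.55 CPM in knockout replicates 1, 2 and 3, against 1.45, 2.22 and 2.09 CPM in WT replicates 1, 2 and 3. With 136 reads over the knockout libraries and 63 over the WT libraries, its log2 fold change of 0.24 had the widest interval of the 10 genes, -0.38 to 0.86 (SE 0.28, edgeR adjusted p = 0.603). Thra (ENSMUSG00000058756, chromosome 11, 98740638 to 98769006, plus strand), which encodes a thyroid hormone receptor and a splice form that does not bind the hormone, had 20.6, 18.4 and 18.3 CPM in knockout replicates 1, 2 and 3, against 17.6, 20.2 and 20.3 CPM in WT replicates 1, 2 and 3. Its groups overlapped and the log2 fold change was -0.03 (SE 0.12, 95% interval -0.27 to 0.22, edgeR adjusted p = 0.908), with a sign that turned without WT replicate 3 or knockout replicate 2 or 3. Exons of Thra overlap those of the clock repressor gene Nr1d1 on the opposite strand over 263 bases, 5.70% of the Thra exon length, so reads there are uncertain. Nr1d1 itself stood at 2.84 ± 1.0 CPM in knockout and 3.29 ± 1.43 CPM in WT macrophages (SD, n = 3 each) and did not pass.

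**Figure D3:**
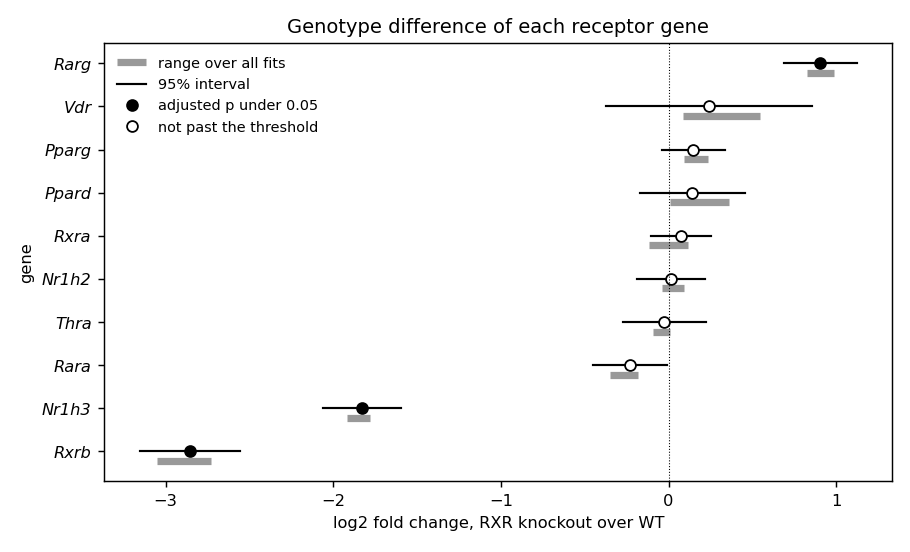
Circles give the log2 fold change of knockout over WT for each gene, thin lines its 95% interval and thick grey bars the range over all 18 fits. Filled circles, at -2.85 for Rxrb, -1.83 for Nr1h3 and 0.90 for Rarg, passed the test and lie clear of 0 in all fits, while Rxra, Nr1h2 and Thra have ranges on both sides of 0.

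The order of the genes by level differed between the genotypes. In knockout macrophages the order per kb of exon was Nr1h2 (33.4 ± 2.57 CPM per kb, SD, n = 3), Pparg (29.5 ± 0.581), Rxra (20.0 ± 0.884), Nr1h3 (9.16 ± 0.776), Rarg (8.80 ± 0.242), Rara (5.98 ± 0.398), Thra (4.14 ± 0.292), Ppard (3.25 ± 0.153), Rxrb (2.33 ± 0.526) and Vdr (0.406 ± 0.0718). The ranges of Nr1h3 and Rarg overlapped there, and all other neighbours lay apart. In WT macrophages the level per kb of exon was 33.0 ± 3.15 for Nr1h2, 32.5 ± 3.44 for Nr1h3 and 26.7 ± 2.11 for Pparg, with overlapping ranges between neighbours. Below these 3, with all neighbours apart in WT, stood Rxra (19.1 ± 1.23 CPM per kb), Rxrb (16.8 ± 0.467), Rara (7.02 ± 0.345), Rarg (4.68 ± 0.286), Thra (4.2 ± 0.329), Ppard (2.91 ± 0.670) and Vdr (0.340 ± 0.0725). Nr1h3 thus stood below Rxra in knockout and above it in WT, and Rarg stood above Rara in knockout and below it in WT.

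Summed over the 8 partners, the level was 96.4, 95.4 and 92.1 CPM per kb in knockout replicates 1, 2 and 3, against 106, 112 and 116 CPM per kb in WT replicates 1, 2 and 3, with no overlap. Nr1h3 made up 9.70% ± 1.05 of this sum in knockout and 29.1% ± 2.08 in WT, and Rarg made up 9.30% ± 0.469 in knockout and 4.2% ± 0.136 in WT (SD, n = 3 each). The shares of Pparg (31.2% ± 0.168 in knockout and 24.1% ± 3.04 in WT) and Nr1h2 (35.2% ± 1.91 in knockout and 29.6% ± 1.70 in WT) were larger in knockout, as shares of a smaller sum. The RXR genes together stood at 22.4 ± 1.22 CPM per kb in knockout and 35.8 ± 1.57 CPM per kb in WT macrophages, and the Rxrb share of them was 10.4% ± 1.93 in knockout and 46.9% ± 1.25 in WT. Because Rxrb is the inactivated gene, and reads of a non-functional Rxra transcript would be counted too, these sums give transcript reads and not working receptor.

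Half-sites of the hexamer that RXR pairs bind were looked for at the start sites of these genes. RefSeq promoter windows (GRCm38.p6) were matched by symbol for 9 of the 10 genes, in 18 windows. The letters AGGTCA, read on either strand in the 250 bases before the start, occurred in 4 of the 18 windows, belonging to Rxra, Pparg and Rarg, against 14.0% of all 32851 windows. Each match is shown with 10 bases on either side, 5′ to 3′ on the gene's strand and with the hexamer or its reverse complement TGACCT in capitals, because Rarg was one of the genes that moved and Rxra and Pparg were not:
Rarg, 225 bases before the start (chr15:102257732-102257757, minus strand): cccaggacacTGACCTctgccagctc
Rxra, 87 bases before an internal start (chr2:27709195-27709220, plus strand): gaaatgggtgTGACCTgagtaatggt
Rxra, 48 bases before the same start (chr2:27709234-27709259, plus strand): gtggcaggaaAGGTCAgtcactctct
Pparg, 28 bases before the start (chr6:115361106-115361131, plus strand): ccgccgcctcAGGTCAgagtcgcccc
Pparg, 9 bases before a second start (chr6:115362330-115362355, plus strand): ggacgcgaggAGGTCAagaaggggcc
Neither window of Nr1h3 held these letters. Both (chr2:91195067-91195366 and chr2:91194986-91195285, minus strand) lay inside the gene, whose annotated 5′ end is at 91202834, so that end was not searched. All windows of Rara, Vdr and Rxra also lay inside their genes, so the annotated 5′ ends of these genes were not searched either. A direct repeat, AGGTCA followed by AGGTCA after 1 to 5 bases on either strand, occurred in 0 of the 18 windows and in 24 of all windows (0.0731%). A match in a window is a description of its letters and not a binding site.

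Other nuclear receptor genes gave a context for these 10. Of 39 listed outside the 10, 14 were tested, of which 3 were higher, 1 was lower and 10 did not pass (28.6% past the threshold, against 19.4% of all tested genes). The 25 that were not tested had at most 15 reads and 0.815 CPM in any library. Among the other RXR partners, 3 of 10 were tested, and the immediate early receptor gene Nr4a1 fell, with 3.66, 3.41 and 3.15 CPM in knockout replicates 1, 2 and 3, against 4.77, 4.70 and 6.01 CPM in WT replicates 1, 2 and 3 (log2 fold change -0.62, edgeR adjusted p = 0.0425). None of the 6 fits on 5 libraries kept that call (edgeR adjusted p from 0.0511 to 0.152). It was also lost with DESeq2 (adjusted p = 0.0691), with no filter (edgeR, 0.0668) and with limma on the deposited log2 values (0.0555), and on counts thinned to the smallest library the log2 fold change was -0.37 (edgeR adjusted p = 0.378).

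Of 29 receptors that do not usually pair with RXR, 11 were tested, 3 rose, 0 fell and 8 did not pass (27.3% past the threshold, against 19.4% of all tested genes). Nr2c2, which encodes the orphan receptor TR4, rose (24.3 ± 1.58 CPM in knockout and 17.4 ± 3.02 CPM in WT, SD, n = 3 each, log2 fold change 0.46, edgeR adjusted p = 0.0273). Rora, a receptor gene of the circadian clock, rose (21.7 ± 0.555 CPM in knockout and 16.7 ± 1.12 CPM in WT, log2 fold change 0.38, edgeR adjusted p = 0.0296). Each of these 2 calls was lost when any library other than 1 was left out, the exception being WT replicate 3 for Nr2c2 and WT replicate 1 for Rora, and both were lost once length and GC offsets were used (0.29 for Nr2c2, edgeR adjusted p = 0.121, and 0.17 for Rora, edgeR adjusted p = 0.312). Counts thinned to the smallest library gave neither call (edgeR adjusted p = 0.201 for Nr2c2 and 0.098 for Rora). Nr3c2, the mineralocorticoid receptor gene, rose on few reads, with 11, 26 and 21 in knockout replicates 1, 2 and 3, against 3, 1 and 1 in WT replicates 1, 2 and 3. It lost its call without WT replicate 3 (edgeR adjusted p = 0.0711). The gene was filtered out, and so not tested, on thinned counts and without knockout replicate 2 or 3. A filter of at least 1 CPM in 3 libraries removed it too. The most abundant receptor gene of this group, the glucocorticoid receptor gene Nr3c1, stood at 128 ± 3.28 CPM in knockout and 113 ± 6.84 CPM in WT and did not pass. Over all 24 tested receptor genes, with the 10 included, 3 had a log2 fold change beyond 1 in size, Rxrb, Nr1h3 and Nr3c2.

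**Figure D4:**
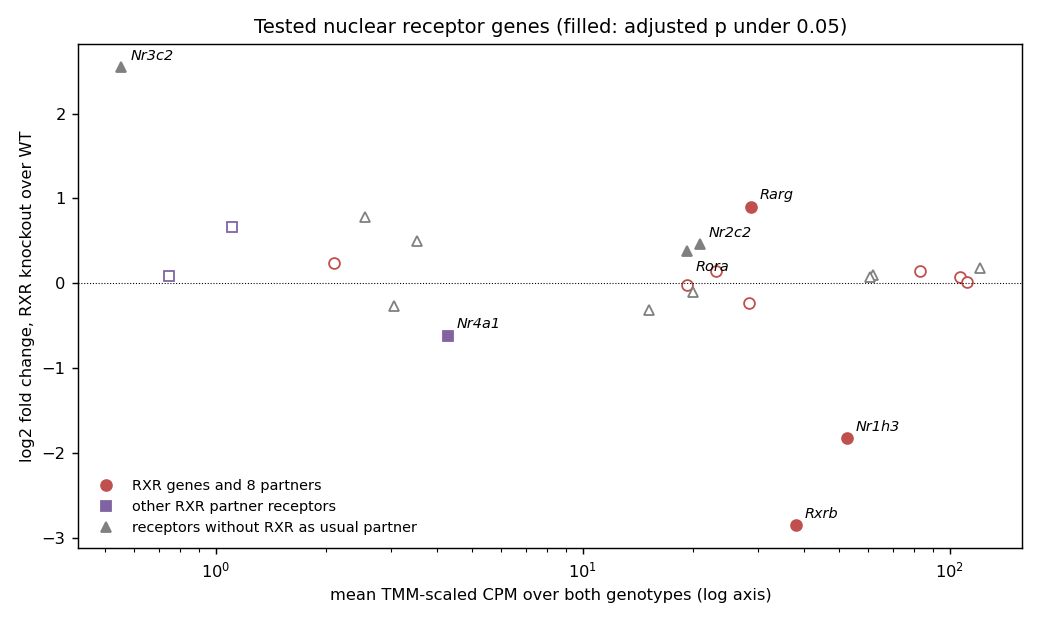
Each symbol is 1 of the 24 tested nuclear receptor genes, with its mean CPM over both genotypes on a log axis and its log2 fold change of knockout over WT; filled symbols passed the test. Rxrb (-2.85) and Nr1h3 (-1.83) lie lowest and Rarg (0.90) is the highest of those above 10 CPM.

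The genes that make, break down or carry ligands for these receptors mostly did not pass. Of 28 listed, 11 were tested, 3 rose, 0 fell and 8 did not pass (27.3% of the tested, against 19.4% of all genes, median log2 fold change 0.07). Dio2, the deiodinase gene whose enzyme makes active thyroid hormone, had 9.77, 8.45 and 9.40 CPM in knockout replicates 1, 2 and 3, against 2.80, 5.09 and 2.29 CPM in WT replicates 1, 2 and 3 (log2 fold change 1.52, SE 0.24, edgeR adjusted p = 7.26e-04). The knockout libraries all lay above the WT libraries, of which replicate 2 was the highest. Dhrs3, whose product turns retinaldehyde back to retinol, rose (471 ± 30.6 CPM in knockout and 354 ± 29.6 CPM in WT, log2 fold change 0.42, edgeR adjusted p = 0.00526). Fabp5, which encodes a carrier of fatty acids and retinoic acid, rose (279 ± 29.9 CPM in knockout and 217 ± 21.8 CPM in WT, log2 fold change 0.36, edgeR adjusted p = 0.0234), but 4 of the 6 fits on 5 libraries, those lacking replicate 1 or 2 of either genotype, did not call it (edgeR adjusted p from 0.0836 to 0.117).

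Known targets of each partner were counted next. Of 18 PPAR targets, 15 were tested, 11 fell (73.3% past the threshold, against 19.4% of all tested genes in either direction and 9.61% lower), 0 rose and 4 missed the threshold, with a median of -0.45 on the log2 scale, and neither PPAR gene passed. No test compared one list with another. Angptl4, a secreted inhibitor of lipoprotein lipase, had 1.92, 2.14 and 1.58 CPM in knockout replicates 1, 2 and 3, against 54.9, 53.6 and 60.7 CPM in WT replicates 1, 2 and 3. Plin2, which coats lipid droplets, and Hadhb, a subunit of a fatty acid oxidation enzyme, fell as well (log2 fold changes -1.25 and -1.10, edgeR adjusted p = 3.1e-07 and 1.97e-05). Of 18 LXR targets, 14 were tested (57.1% past the threshold, against the same 19.4%), 4 rose, 4 fell and 6 missed the threshold, with a median of 0.02 on the log2 scale, beside the fall of Nr1h3. The phospholipid remodelling gene Lpcat3 (30.2 ± 3.42 CPM in knockout and 58.5 ± 2.90 CPM in WT, SD, n = 3 each), Mylip, whose product marks the LDL receptor for breakdown (29.8 ± 2.64 CPM in knockout and 64.1 ± 9.49 CPM in WT), and the scavenger protein gene Cd5l (423 ± 12 CPM in knockout and 1005 ± 27.0 CPM in WT) fell. The cholesterol exporter gene Abca1 (536 ± 17.1 CPM in knockout and 278 ± 34.6 CPM in WT), the desaturase gene Scd2 (70.6 ± 1.64 CPM in knockout and 28.9 ± 3.03 CPM in WT) and the phosphodiesterase gene Smpdl3a (361 ± 33.4 CPM in knockout and 258 ± 15.6 CPM in WT) rose.

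The other partners had few tested targets. Of 10 RAR targets, 4 were tested (75.0% past the threshold, against 19.4% of all tested genes). Dhrs3 rose, and the transglutaminase gene Tgm2 (log2 fold change -0.64, edgeR adjusted p = 4.4e-04) and the ubiquitin ligase subunit gene Asb2 (-1.61, edgeR adjusted p = 0.0244) fell. Leaving out knockout replicate 2 or either of WT replicates 1 and 3 ended the Asb2 call (edgeR adjusted p from 0.0952 to 0.139), as did limma on the deposited log2 values (adjusted p = 0.0671). Of 9 targets of the vitamin D and thyroid hormone receptors, 4 were tested. Of these 4, 1 rose, 0 fell and 3 did not pass, against 19.4% of all tested genes past the threshold. Klf9, a thyroid hormone and glucocorticoid target, was the gene that rose (15.9 ± 1.68 CPM in knockout and 11.2 ± 1.44 CPM in WT). Its log2 fold change was 0.52 (edgeR adjusted p = 0.0197). Leaving out knockout replicate 2 or either of WT replicates 2 and 3 ended the Klf9 call (edgeR adjusted p from 0.0501 to 0.0983), as did counts thinned to the smallest library (edgeR adjusted p = 0.0848). Cyp24a1, the vitamin D breakdown gene that serves as a readout of its receptor, had 0, 0 and 7 reads in knockout replicates 1, 2 and 3, against 0, 0 and 1 in WT replicates 1, 2 and 3.

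**Figure D5:**
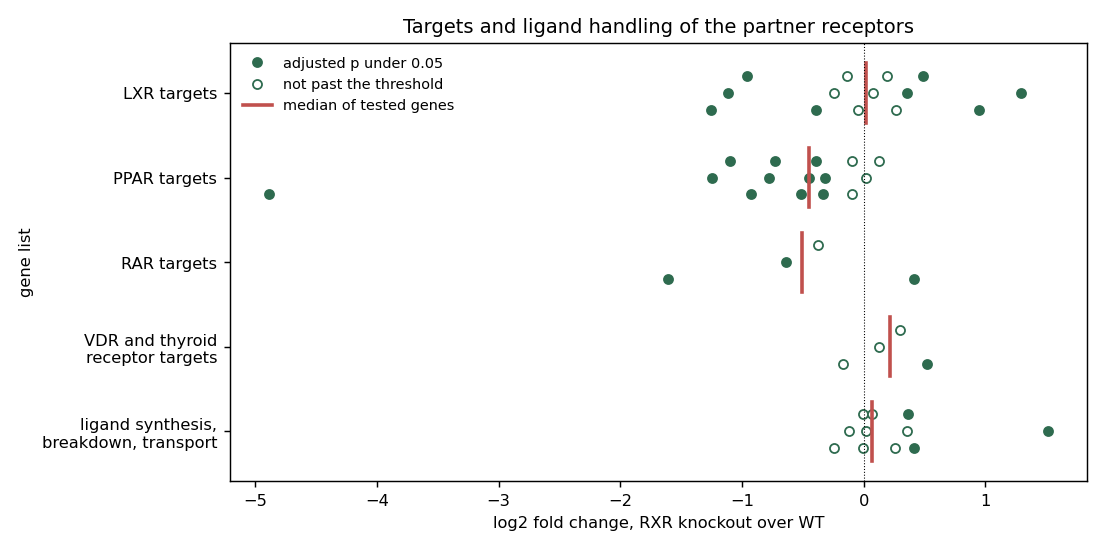
Each circle is a tested gene of the list named at the left, with its log2 fold change of knockout over WT, and the vertical bar is the median of the list's tested genes; filled circles passed the test. Most PPAR targets lie left of 0 (median -0.45), with Angptl4 at -4.89, while LXR targets lie on both sides (median 0.02).

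The genes whose pattern over the 6 libraries was most like that of a receptor gene were found by the smallest root mean square difference between centred log2 CPM values among 9554 genes. The genotype difference makes up most of such a pattern. For Nr1h3 these were the Src-family kinase gene Fgr (0.165), the ribonuclease gene Rnaset2b (0.185) and the heme-binding protein gene Hebp1 (0.186). For Rarg they were the vitamin C transporter gene Slc23a2, the arsenic methyltransferase gene As3mt and the cell cycle kinase gene Cdk6, and for Rxrb they were the C-type lectin genes Clec10a and Clec4b1 and the adhesion molecule gene Vcam1. Fgr had 11.5 ± 0.105 CPM in knockout and 36.8 ± 6.79 CPM in WT, and Slc23a2 had 300 ± 14.1 CPM in knockout and 167 ± 11.3 CPM in WT (SD, n = 3 each).

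The cells carried macrophage transcripts in both genotypes, and some markers passed the test in either direction. All 10 macrophage markers were tested, with overlapping sums of 7830 to 9200 CPM in knockout and 6960 to 8070 CPM in WT. Of these, 3 rose, among them Cd14 and Itgam, and 2 fell (50.0% past the threshold, against 19.4% of all tested genes). Neutrophil markers summed to 1050 to 1180 CPM in knockout and 1160 to 1300 CPM in WT, ranges that also overlapped. All 11 were tested and 4 fell, among them the granule genes Mpo, Elane and Prtn3. This was 36.4% of the list, against 9.61% of all tested genes lower, with a list median log2 fold change of -0.08. Of the B cell list only Cd79b reached the test (1.70 ± 0.247 CPM in knockout and 5.25 ± 0.599 CPM in WT, SD, n = 3 each) and it fell, while Cd79a, Ms4a1 and Pax5 stayed at or below 0.380 CPM in every library. Stromal markers summed to 5.28 to 12 CPM in knockout and 12.8 to 13.8 CPM in WT. Of 8 listed, 4 were tested, with Col3a1 and Pecam1 lower (50.0% of the tested, against 9.61% of all tested genes lower). Dendritic, T or NK, erythroid and mast cell or basophil lists stayed at or below 2.72 CPM in sum in every library. Megakaryocyte markers (6.31 to 9.07 CPM in knockout and 8.35 to 12 CPM in WT) and progenitor markers (3.32 to 5.49 CPM in knockout and 2.87 to 3.53 CPM in WT) had no gene past the threshold, with 2 and 3 genes tested. The X inactivation transcript Xist had 209, 267 and 236 CPM in knockout replicates 1, 2 and 3, against 0 in each WT library, and 4 genes of the Y chromosome (Ddx3y, Eif2s3y, Kdm5d and Uty, chosen after their values were seen) summed to 106, 117 and 114 CPM in knockout replicates 1, 2 and 3, against 230, 224 and 217 CPM in WT replicates 1, 2 and 3. Every knockout library thus held transcripts of both kinds, and every WT library held only the Y-linked kind. The labels give neither the sex nor the number of animals behind a library, so this make-up and genotype cannot be told apart in any comparison here. The part of these markers in the receptor values was not tested.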

How the data were processed

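The authors deposited raw counts per Ensembl gene for 6 libraries, and TopHat2 2.0.7 and DESeq are named as tools, with mm10 (GRCm38) as build, per the submitters' processing notes. For the counting program, annotation release and strand setting, nothing was given in the sources used here, so reads of overlapping genes can be misplaced. A second deposited table holds log2 normalized values, used in 1 alternative with a pseudocount of 1. The median difference of its values from log2 counts, over genes above a count limit, ran from -0.696 in knockout replicate 2 to 1.03 in WT replicate 2. How far single genes lay from that median was not examined.

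The main test was the robust quasi-likelihood F test of edgeR 4.0.16, run in R 4.3.3 with TMM factors and genotype alone in the model, on 12011 genes kept by filterByExpr (minimum count 10, minimum total 15). P-values were adjusted by Benjamini-Hochberg over these genes. SEs restate the F statistic (the size of the log2 fold change over the root of F), and 95% intervals follow from them. Alternatives used limma 3.58.1 and DESeq2 1.42.0 as well. The fit was tested on simulated data. Exon lengths and positions came from GENCODE M21 (GRCm38). Genes beyond the 10 were named by rule: from each list up to 3 that rose and 3 that fell with the smallest adjusted p, and genes overlapping a receptor gene, near Rxra or Rxrb or most alike in pattern. Rarb, Nr3c1, Cyp24a1, Xist and the B cell genes at low level were named after their values were seen. The 10 genes and the lists were chosen with earlier results of these data known.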

Additional observations from a re-analysis of the deposited data

How the results depend on the processing

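The count of genes past the threshold was 2327. It was 1375 with the replicate number as a block, and it ranged from 1286 to 2607 with each library left out, with 1286 without WT replicate 1 and 1383 without knockout replicate 1. Same-numbered libraries did not deviate together (correlations of 0.053, -0.275 and -0.259 for numbers 1, 2 and 3), and no library correlated best with its own number. The highest correlation, 0.307, was between knockout replicate 3 and WT replicate 2. With 3 libraries per genotype, these values cannot show whether any libraries were handled together. The count of receptor genes past the threshold was 3 with the block, with each library left out (from 3 to 3) and in every other fit except that with length and GC offsets, which gave 5 by adding Rara and Pparg; the cause was not tested. Signs that turned were all of genes short of the threshold: Rxra with those offsets (-0.119), Slc39a7 on thinned counts (0.093) and, with a library left out, Nr1h2 (-0.037 to 0.092), Thra (-0.09 to 0.011), Nr1d1 (-0.533 to 0.029) and Ring1 (-0.205 to 0.01). The difference in the RXR beta share of RXR transcripts was -36.5 percentage points, -31.3 on raw counts and -40.9 with the longest transcript, settings that change the lengths divided by, and -37.6 to -35.8 with a library left out. That of LXR alpha was -29.5 to -26.6 and that of RAR gamma 18.5 to 20.0 with a library left out. Of the 10 receptor genes, Vdr had the fewest reads.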
